A study of Homo sapiens with 4 samples.

Results

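Genes whose products build platelets or work on their surface were measured in K562/G01 cells, and 7 were chosen by name: GP6, TUBB1, RAB27B, ITGA2B, ITGB3, PF4 and GP9. Of these, 6 have a row among the 28482 genes of the deposited count table, and PF4, a chemokine of platelet granules, is not analysed here. K562/G01 is an imatinib-resistant form of K562, an established line of chronic myeloid leukemia cells; imatinib inhibits BCR-ABL1, the fusion kinase of that leukemia. The groups were TCF7 knockdown cells with imatinib, scramble cells with imatinib, TCF7 knockdown cells without the drug and scramble cells without it, with 1 library of ribosome-depleted RNA each. Knockdown cells had received a lentivirus for RNA interference with TCF7, which encodes a DNA-binding partner of beta-catenin, and scramble cells a lentivirus with a scrambled sequence, so every group had been infected. Imatinib was given at 1 µM for 48 hours. Whether infections and drug treatments were done separately, and whether any culture was 1 clone, is not stated; the source is labelled leukocyte.

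Megakaryocytes are the bone marrow cells that shed platelets. As they mature they switch on receptors for collagen, von Willebrand factor and fibrinogen, fill granules with chemokines and adhesive proteins, and assemble a ring of microtubules that gives the platelet its disc shape. K562 cells stand near the branch between the red cell and megakaryocyte lineages and can express genes of either.

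The deposited counts summed to between 30634832 and 34095585 per library, and levels are given as CPM, counts scaled to a common library total. TCF7 itself had 2.55 CPM in the knockdown library against 10.2 CPM in its scramble library, and under imatinib 3.69 CPM after knockdown against 10.8 CPM with scramble. Among markers chosen to check the cell type, all 10 erythroid genes were detected in every library and summed to between 3050 and 3294 CPM. With knockdown 1 of the 10 rose, ALAS2 of heme synthesis (log2 fold change 0.52, edgeR adjusted p = 0.000317). The anion exchanger SLC4A1 was the 1 that fell (-1.04, edgeR adjusted p = 0.0375), which makes 20% called against 7.14% of all genes tested. SLC4A1 rests on 51 to 136 counts a library. DESeq2, a second test on the counts, called ALAS2 (adjusted p = 0.0184) and not SLC4A1 (0.431). With offsets for GC content and length ALAS2 rose and 5 fell, against 12.2% of all genes called. Those 5 were SLC4A1 and the globin genes HBG1, HBG2, HBA1 and HBE1. The part of these erythroid genes in the results was not tested. The 9 megakaryocyte markers with a row summed to between 56.5 and 64.6 CPM, nearly all of it from TUBB1, RAB27B and GP6. VWF, which encodes von Willebrand factor, had 1 to 3 counts in each library and GP1BA, the ligand-binding chain of its platelet receptor, 0 to 4.

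Levels between genes were compared per length, on the scale of the authors' FPKM column. TUBB1 lay highest, between 4.88 and 9.80 FPKM over the 4 libraries, above RAB27B (2.58 to 4.56) with no overlap. RAB27B and GP6 (1.24 to 3.37) overlapped. ITGA2B (0.165 to 0.497) and ITGB3 (0.220 to 0.516) overlapped as well, and both lay below GP6 in every library. GP9 had 0 counts in 3 libraries and 2 in the scramble library with imatinib. GP9 encodes a small subunit of the receptor complex for von Willebrand factor. The 0 counts allow up to 0.0979 CPM for knockdown, 0.0905 CPM for scramble and 0.0945 CPM for knockdown with imatinib, and the 2 counts are 0.0587 CPM (exact Poisson 95% interval 0.00710 to 0.212), so no difference in GP9 was detectable at this depth.

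**Figure D1:**
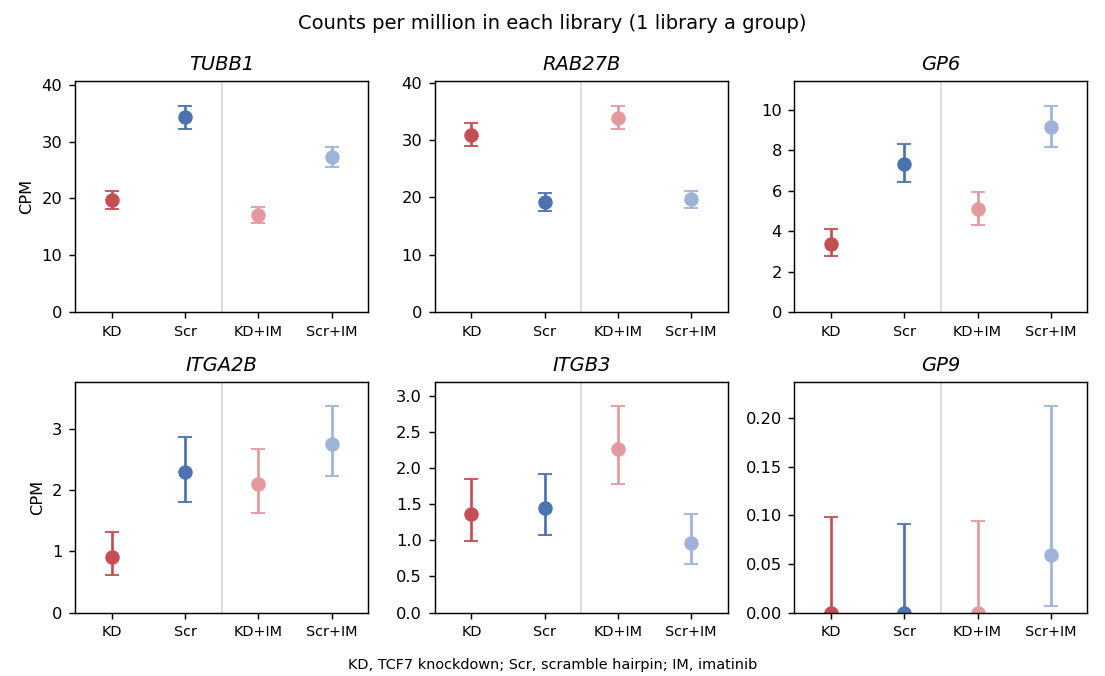
Levels in CPM of the 6 measured genes in each library, 1 panel a gene with its own axis from 0; points are single libraries and bars exact Poisson 95% intervals, or the range that a count of 0 allows, for counting error only. TUBB1 and GP6 lie lower and RAB27B higher in both knockdown libraries than in either scramble library. The points of ITGA2B lie in the same order as those of GP6, with intervals that overlap.

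The knockdown comparison asked which of these transcripts differ when TCF7 is reduced in resistant cells. GP6 and TUBB1 fell with knockdown and RAB27B rose. ITGA2B and ITGB3 were not called and GP9 was too low to test, which makes 3 of 5 tested genes called. Over all 13296 genes tested the share called was 7.14% (3.8% higher and 3.34% lower). At an unadjusted p under 0.05 in edgeR there were 4 of the 5, and 2577 of all 13296 genes. The genes were chosen with results of these data known, so neither count is a measure of how often platelet genes differ. The test was edgeR's quasi-likelihood test over all 4 libraries with terms for knockdown and imatinib and Benjamini-Hochberg adjustment. Each group has 1 library, so only 1 residual degree of freedom, the disagreement between the pair without and the pair under imatinib, stood beside 33.8 prior degrees of freedom from the trend over all genes. The p-values measure the spread between these libraries, which may be technical. With all 4 libraries and no term for imatinib, edgeR called 0 of the 5, at log2 fold changes of -0.95 for GP6 (adjusted p = 0.47), -0.73 for TUBB1 (0.359) and 0.76 for RAB27B (0.222). A lasting difference between the infected cultures cannot be told apart from an effect of TCF7, and in bulk RNA fewer expressing cells cannot be told apart from less RNA per cell.

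GP6 encodes glycoprotein VI, the collagen receptor that starts platelet activation. It had 3.36 CPM in the knockdown library (exact Poisson 95% interval 2.74 to 4.08) and 7.30 CPM in the scramble library (6.41 to 8.28). Under imatinib it had 5.07 CPM in the knockdown library (4.32 to 5.92) and 9.12 CPM in the scramble library (8.14 to 10.2). Both knockdown libraries were below both scramble libraries. The knockdown libraries held 0.468 (counting interval 0.364 to 0.586) and 0.567 (0.463 to 0.684) of the GP6 level of their scramble libraries, without and under imatinib. GP6 fell over both imatinib states with a log2 fold change of -0.96 (SE 0.206, edgeR adjusted p = 0.00198) and was lower in both pairs. DESeq2, which called 2.05% of all genes and 2 of these 5, did not call it (adjusted p = 0.0799). Where the term for imatinib was dropped and 1 library left out, the log2 fold change was -1.09 without the scramble library (edgeR adjusted p = 0.635), -0.69 without the knockdown library (0.141), -0.78 without the treated scramble library (1) and -1.26 without the treated knockdown library (0.00455).

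GP6 lies on chromosome 19 from 55013705 to 55038264 (GRCh38, minus strand), and an annotated antisense gene, AC011476.3, spans it. The strand setting of the counting is not given in the sources used here, so reads of the partner could enter the GP6 count or the reverse. AC011476.3 had 168 counts in the knockdown library against 165 for scramble, and under imatinib 143 against 152. AC011476.2, on the same strand as GP6, overlaps it by 10672 bases and had 8 to 22 counts. The part of these overlaps in the GP6 difference was not tested.

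TUBB1 encodes the beta tubulin of the platelet's marginal microtubule band and is made almost only by megakaryocytes and platelets. It had 19.7 CPM in the knockdown library (18.2 to 21.4) and 34.3 CPM in the scramble library (32.3 to 36.3). Under imatinib it had 17.1 CPM in the knockdown library (15.7 to 18.6) and 27.2 CPM in the scramble library (25.5 to 29.03). Both knockdown libraries lay below both scramble libraries, with intervals that did not overlap. The ratios of knockdown over scramble were 0.579 (0.523 to 0.639) without and 0.637 (0.571 to 0.708) under imatinib, and TUBB1 fell with a log2 fold change of -0.72 (SE 0.115, edgeR adjusted p = 3.66e-05) and was lower in both pairs. DESeq2 also called it (adjusted p = 0.00179). With no term for imatinib and 1 library left out, the log2 fold change was -0.54 without the scramble library (edgeR adjusted p = 1), -0.89 without the treated scramble library (0.366), -0.62 without the treated knockdown library (0.0947) and -0.85 without the knockdown library (0.00254). TUBB1 lies on chromosome 20 from 59019254 to 59026654 (plus strand), and overlaps ATP5F1E on the other strand by 1188 bases. ATP5F1E, a subunit of ATP synthase, had 3016 counts in the knockdown library against 2865 for scramble, and under imatinib 2433 against 2674.

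The beta tubulins are a family listed after the values were seen. Of 6 tested isotypes 1, TUBB1, was called for knockdown, against 7.14% of all genes. With offsets for GC content and length TUBB6 (log2 fold change -0.22, edgeR adjusted p = 0.00365) and TUBB4B (-0.17, 0.0361) fell as well, against 12.2% of genes. TUBB, the isotype with the highest level, had 472 FPKM in the knockdown library against 437 FPKM for scramble, and under imatinib 539 FPKM after knockdown against 516.5 FPKM for scramble (edgeR adjusted p = 0.48). TUBB2B, at a low level, had a log2 fold change of -0.76 (SE 0.317) and was not called (edgeR adjusted p = 0.157). TUBB1 made up 0.900% of the summed beta tubulin FPKM after knockdown against 1.60% for scramble, and under imatinib 0.664% against 1.07%. Its share was thus lower in each knockdown library than in either scramble library.

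RAB27B encodes a small GTPase that docks granules at the plasma membrane and takes part in the packaging and release of platelet dense granules. It had 30.9 CPM in the knockdown library (29.01 to 32.98) and 19.2 CPM in the scramble library (17.7 to 20.7). Under imatinib it had 33.9 CPM in the knockdown library (31.9 to 36.0) and 19.7 CPM in the scramble library (18.2 to 21.2). Both knockdown libraries lay above both scramble libraries, with intervals that did not overlap. The ratios were 1.62 (1.47 to 1.80) without and 1.748 (1.59 to 1.93) under imatinib, and RAB27B rose with a log2 fold change of 0.75 (SE 0.112, edgeR adjusted p = 1.19e-05) and was higher in both pairs. DESeq2 called it (adjusted p = 0.000623), but limma on the log2 of the deposited FPKM did not (adjusted p = 0.0541 with 0.1 added and 0.0639 with 1 added). With 1 library left out and no term for imatinib, RAB27B had a log2 fold change of 0.74 without the scramble library (edgeR adjusted p = 1), 0.77 without the treated scramble library (0.891), 0.81 without the knockdown library (0.00249) and 0.70 without the treated knockdown library (0.0324). RAB27B lies on chromosome 18 from 54717860 to 54895516 (plus strand), and the 3 annotated genes that overlap it had at most 10 counts in any library.

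RAB27A, the close paralog of RAB27B, went the other way. It is a GTPase of secretory granules in many blood cells and belongs to the list of other platelet genes described below. It had 7.28 FPKM after knockdown against 9.30 FPKM for scramble, and under imatinib 6.57 FPKM after knockdown against 9.06 FPKM for scramble. RAB27A fell with a log2 fold change of -0.39 (SE 0.0937, edgeR adjusted p = 0.0055) and was lower in both pairs, but was not called by DESeq2 (adjusted p = 0.101). RAB27B made up 36.4% of the summed FPKM of both paralogs after knockdown against 21.7% for scramble, and under imatinib 41.0% after knockdown against 22.6% for scramble. RAB27A remained the more abundant of the paralogs in all 4 libraries.

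A list of RAB27 proteins and their partners was made after the values were seen. Of its 8 tested genes RAB27B and RAB27A were called for knockdown and 6 were not, where 7.14% of all genes were called. SYTL4, an effector that binds RAB27 on granules, had a log2 fold change of 0.02 (edgeR adjusted p = 0.952). UNC13D, which primes granules for release, had -0.00164 (edgeR adjusted p = 0.994), and MADD, a RAB27 exchange factor, 0.01 (edgeR adjusted p = 0.981).

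**Figure D2:**
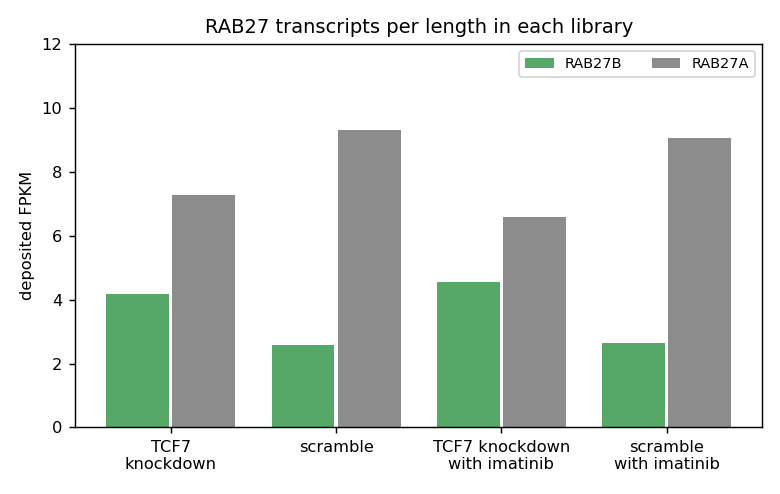
Deposited FPKM of RAB27B and its paralog RAB27A in each library, as bars from 0 with 1 library a group. RAB27B stands at 4.16 and 4.56 FPKM in the knockdown libraries against 2.58 and 2.64 FPKM in the scramble libraries, and RAB27A at 7.28 and 6.57 FPKM against 9.30 and 9.06 FPKM.

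The promoters of the called genes are shown because TUBB1 and GP6 fell together while RAB27B rose. Each is the 300-base window around an annotated start in RefSeq (GRCh38.p14), read 5′ to 3′ on the gene's strand. Of the 6 genes in the table, 5 have a window in the RefSeq promoter table, and RAB27B has windows for 2 starts. Capitals mark exact matches, on either strand, to the GATA letters (AGATAA or TGATAA, or AGATAG or TGATAG), the ETS letters (CCGGAA or AGGAAG), the RUNX letters (TGTGGT), or the TCF/LEF letters (CTTTGAT or CTTTGTT). No 2 matches overlapped in these windows.
GP6, chr19:55038215-55038514, minus strand: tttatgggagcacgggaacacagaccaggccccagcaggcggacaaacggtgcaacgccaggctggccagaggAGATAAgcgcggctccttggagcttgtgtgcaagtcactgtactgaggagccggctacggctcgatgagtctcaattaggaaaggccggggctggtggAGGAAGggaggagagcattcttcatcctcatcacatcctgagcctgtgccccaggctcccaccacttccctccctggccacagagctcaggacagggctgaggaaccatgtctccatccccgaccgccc
TUBB1, chr20:59019179-59019478, plus strand: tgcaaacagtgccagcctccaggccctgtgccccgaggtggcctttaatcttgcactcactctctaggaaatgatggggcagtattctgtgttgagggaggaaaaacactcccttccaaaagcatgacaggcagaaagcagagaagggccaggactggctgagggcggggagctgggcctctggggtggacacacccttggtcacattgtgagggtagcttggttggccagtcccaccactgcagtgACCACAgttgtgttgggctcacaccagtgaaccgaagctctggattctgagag
RAB27B at its upstream start, chr18:54717607-54717906, plus strand: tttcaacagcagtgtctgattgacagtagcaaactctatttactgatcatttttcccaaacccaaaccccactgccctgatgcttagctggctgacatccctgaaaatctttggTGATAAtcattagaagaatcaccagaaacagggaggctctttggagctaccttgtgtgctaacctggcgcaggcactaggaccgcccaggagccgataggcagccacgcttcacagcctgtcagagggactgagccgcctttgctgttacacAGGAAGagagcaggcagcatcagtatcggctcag
RAB27B at its downstream start, chr18:54828227-54828526, plus strand: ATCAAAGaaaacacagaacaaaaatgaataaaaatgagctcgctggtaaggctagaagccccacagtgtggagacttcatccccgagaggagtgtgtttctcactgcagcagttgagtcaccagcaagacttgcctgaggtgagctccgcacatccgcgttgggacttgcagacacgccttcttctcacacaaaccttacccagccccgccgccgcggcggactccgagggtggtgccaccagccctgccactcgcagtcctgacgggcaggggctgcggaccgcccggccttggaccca

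In the GP6 window AGATAA stands at -177 and AGGAAG at -79 relative to the start, and in the upstream RAB27B window TGATAA stands at -136 and AGGAAG at 17. The TUBB1 window held 1 match, the RUNX letters on the opposite strand at -3. The only match to the TCF/LEF letters was at -250 of the downstream RAB27B window, on the opposite strand. Among 35116 RefSeq promoter windows of the same length, 25% held a GATA match, 45.4% an ETS match, 13.1% a RUNX match and 7.61% a TCF/LEF match. These are matches of letters only, and the starts used in these cells were not measured.

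ITGA2B and ITGB3 encode the subunits of the fibrinogen receptor that links platelets to each other, the integrin alpha IIb and beta 3 chains. ITGA2B had 0.914 CPM in the knockdown library (0.607 to 1.32, from 28 counts) and 2.29 CPM in the scramble library (1.81 to 2.87, from 76 counts). Under imatinib it had 2.11 CPM in the knockdown library (1.64 to 2.68) and 2.76 CPM in the scramble library (2.23 to 3.37). Both knockdown libraries were below both scramble libraries, as for GP6. The low value was that of the untreated knockdown library, and the intervals of the libraries with imatinib overlapped. ITGA2B was not called for knockdown (log2 fold change -0.79, SE 0.354, edgeR adjusted p = 0.198). In fits with no term for imatinib its log2 fold change was -0.72 with all 4 libraries, -0.26 without the knockdown library and -1.44 without the treated knockdown library. Its knockdown ratio was 0.417 (0.250 to 0.626) without the drug and 0.781 (0.559 to 1.07) with it.

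ITGB3 had 1.37 CPM in the knockdown library (0.988 to 1.85) and 1.45 CPM in the scramble library (1.07 to 1.92). Under imatinib it had 2.27 CPM in the knockdown library (1.77 to 2.86, from 72 counts) and 0.968 CPM in the scramble library (0.666 to 1.36, from 33 counts). The untreated libraries were alike within counting error, and those with imatinib were not. ITGB3 was not called for knockdown (log2 fold change 0.59, SE 0.395, edgeR adjusted p = 0.448). With no term for imatinib its log2 fold change was 0.60 with all 4 libraries and between 0.21 (treated knockdown library left out) and 0.93 (scramble library left out) with 3. Another annotated gene on the same strand, AC068234.1, overlaps the span of ITGB3, introns included, by 57920 bases. AC068234.1 has no row in the deposited table, and overlap of exons was not measured. How far it affects the ITGB3 count is therefore not known. Per length, ITGA2B over ITGB3 was 0.528 after knockdown against 1.25 for scramble, and under imatinib 0.737 after knockdown against 2.25 for scramble. The subunit ratio was lower in each knockdown library than in either scramble library, on few counts. Whether it lies below or above 1 depends on the lengths used. The deposited FPKM imply 5551 bases for ITGA2B and 4394 for ITGB3. The longest GENCODE transcripts have 3333 and 3995 bases, and ratios on those lengths were not computed.

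Integrin chains were listed as partners after the values were seen, and 7 were tested with ITGA2B and ITGB3 among them. For knockdown 2 fell, 28.6% against 7.14% of all genes, namely ITGB5, a beta chain that pairs with ITGAV (log2 fold change -1.03, edgeR adjusted p = 0.0161), and ITGA5, a chain of the fibronectin receptor (-0.30, 0.0128). DESeq2 called neither (adjusted p = 0.280 and 0.151). ITGB5 was at a level like that of ITGA2B and ITGB3, between 0.319 and 0.719 FPKM. ITGAV, which also pairs with ITGB3, had between 7.72 and 10.6 FPKM, and ITGB1, the common beta chain, between 56.2 and 65.1 FPKM. ITGAV and ITGB1 were not called for knockdown (edgeR adjusted p = 0.234 for ITGAV and 0.825 for ITGB1). Of the other subunits of the von Willebrand factor receptor, GP1BA (0 to 4 counts) and GP5 (0 to 8) were near 0. GP1BB, a further subunit, has no row in the deposited table. FCER1G, the signalling chain without which glycoprotein VI does not reach the platelet surface, had 14 to 22 counts and was below the filter.

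**Figure D3:**
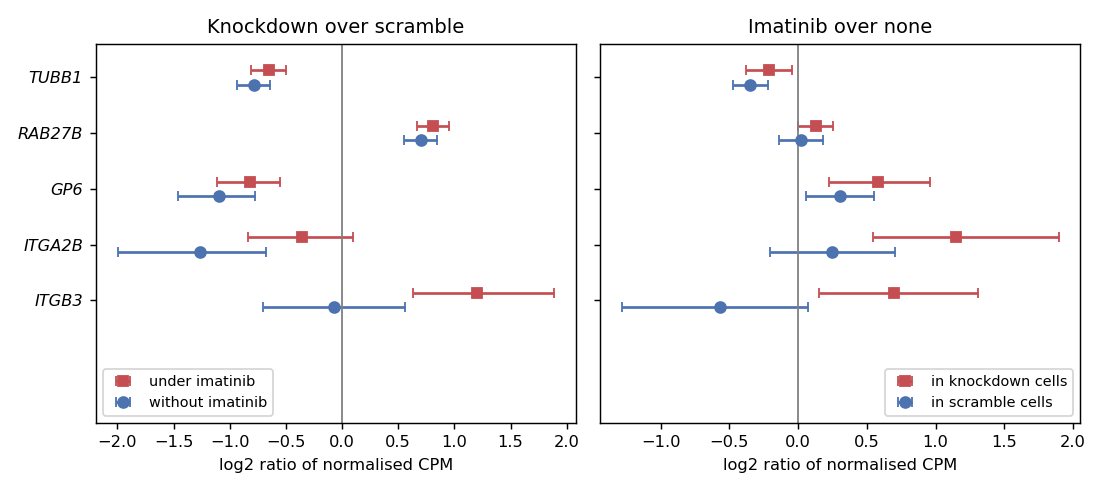
Log2 ratios of normalised CPM for the 5 tested genes, knockdown over scramble on the left and imatinib over none on the right, with exact binomial 95% intervals for counting error only. TUBB1, GP6 and RAB27B keep their side of 0 in both knockdown pairs, and ITGB3 has 1.20 under imatinib and -0.07 without.

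The imatinib comparison asked which transcripts differ when resistant cells meet the drug. Of the 5 tested genes 0 were called by edgeR, against 20.9% of 13296 genes in all (13.8% higher and 7.08% lower), and 2 had an unadjusted p under 0.05. DESeq2 called 0 of the 2 for which it gave an adjusted p, TUBB1 and RAB27B, where 10.6% of genes were called. TUBB1 was lower with imatinib in both pairs, with a ratio of 0.864 (0.768 to 0.971) in knockdown cells and 0.786 (0.720 to 0.858) in scramble cells, and a log2 fold change of -0.28 (SE 0.115, edgeR adjusted p = 0.0737). GP6 was higher in both pairs, 1.495 (1.17 to 1.95) in knockdown and 1.23 (1.04 to 1.47) in scramble cells, with a log2 fold change of 0.43 (SE 0.205, edgeR adjusted p = 0.128). RAB27B had ratios of 1.09 (1.00 to 1.19) in knockdown cells and 1.02 (0.909 to 1.13) in scramble cells (edgeR adjusted p = 0.666). ITGA2B had 2.22 (1.46 to 3.72) in knockdown cells and 1.18 (0.870 to 1.63) in scramble cells (edgeR adjusted p = 0.174).

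The log2 ratio of imatinib over none went with GC content in these libraries, with a Spearman correlation across 10095 genes of 0.751 in knockdown and 0.682 in scramble cells. Across genes these values share the same libraries and are no independent replicates. GC content of the longest transcript was 35.9% for RAB27B, 46.9% for TUBB1, 52.3% for ITGB3, 54.6% for GP6 and 61.1% for ITGA2B. With a trend over GC content and length entered as offsets, the log2 fold changes for imatinib were -0.26 for TUBB1, 0.26 for GP6, 0.27 for RAB27B and 0.27 for ITGA2B, where 4.75% of genes were called and none of these. For knockdown, where GC content and log2 ratio had a correlation of -0.109 without and 0.366 under imatinib, the same offsets left GP6 (edgeR adjusted p = 1.57e-05), TUBB1 (2.56e-10) and RAB27B (4.33e-13) called, against 12.2% of genes.

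Compared with untreated scramble cells, cells with both knockdown and imatinib held 0.501 (0.450 to 0.554) of the TUBB1 level, 0.699 (0.567 to 0.854) of the GP6 level and 1.77 (1.61 to 1.962) of the RAB27B level. This pair has 1 library a side and no test. The knockdown log2 ratio under imatinib minus that without differed from 0 by more than counting error for ITGA2B (0.91, counting interval 0.13 to 1.68) and ITGB3 (1.26, 0.42 to 2.11). For GP6 (0.28, -0.15 to 0.71), TUBB1 (0.14, -0.07 to 0.34) and RAB27B (0.11, -0.09 to 0.31) it did not. With the trend over GC content and length removed, the difference was 0.69 for ITGA2B and 1.19 for ITGB3. An interval of unchanged width would then include 0 for ITGA2B but not for ITGB3. With 1 library a group these differences were not tested.

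A wider list of 60 platelet genes was taken from textbook knowledge with earlier results of these data known. Of these 54 have a row and 36 passed the expression filter. For knockdown 2 rose, 2 fell and 32 were not called, which is 11.1% against 7.14% of all genes. Their median log2 fold change was -0.01, where that of all genes tested was 0.01. PTGS1, the cyclooxygenase that aspirin blocks in platelets, rose (log2 fold change 0.45, SE 0.104, edgeR adjusted p = 0.00413), at 37.9 CPM after knockdown against 29.7 CPM for scramble, and under imatinib 36.9 CPM against 25.8 CPM. PLEK, which encodes the protein kinase C substrate pleckstrin, rose at a low level (1.119, SE 0.325, edgeR adjusted p = 0.0283), with 2.77 CPM after knockdown against 1.21 CPM for scramble, and under imatinib 3.87 CPM against 1.91 CPM. CD36, a scavenger receptor that binds thrombospondin, fell along with RAB27A (-0.32, SE 0.0872, edgeR adjusted p = 0.0167). The difference in CD36 stood under imatinib, with 89.7 CPM in the knockdown library and 137 CPM in the scramble library, against 131 CPM and 137 CPM in the untreated knockdown and scramble libraries. DESeq2 called none of these 4 (adjusted p = 0.110 for PTGS1, 0.371 for PLEK and 0.864 for CD36). With the GC and length offsets 3 rose and 4 fell, where 12.2% of all genes were called. Added to these were VAMP8 (0.25, edgeR adjusted p = 0.0377), P2RY1 (-0.24, 0.00977) and RASGRP2 (-0.55, 0.0286).

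**Figure D4:**
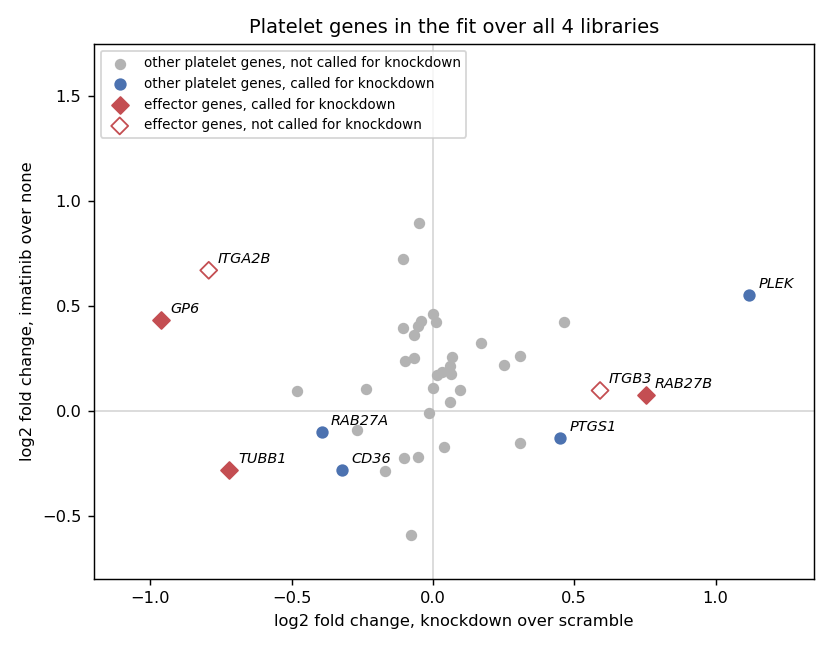
Log2 fold change with knockdown against that with imatinib for the 5 tested effector genes and the 36 tested genes of the wider platelet list, each from the fit over all 4 libraries. GP6, TUBB1, CD36 and RAB27A lie to the left and RAB27B, PTGS1 and PLEK to the right among genes called for knockdown, and the wider list has medians of -0.01 for knockdown and 0.18 for imatinib.

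With imatinib 9 genes of the wider list rose, 5 fell and 22 were not called, 38.9% against 20.9% of all genes (13.8% higher and 7.08% lower), and their median log2 fold change was 0.18, where that of all genes tested was -0.00414. FERMT3, the kindlin that activates integrins in blood cells, rose (log2 fold change 0.73, SE 0.0957, edgeR adjusted p = 2.06e-06), and so did TBXA2R, the thromboxane receptor (0.90). Also higher were UNC13D (0.46), STXBP2, a partner of granule fusion (0.43), TUBA4A, the alpha tubulin of platelets (0.42), NBEAL2, needed for alpha granules (0.41), FLNA, an actin crosslinker (0.39), F2RL3, a thrombin receptor (0.36), and HPS1, needed for dense granules (0.32). SRGN, a granule proteoglycan (-0.59), ITGAV (-0.29), CD36 (-0.28), RAP1B, a GTPase of integrin activation (-0.23), and AP3B1, an adaptor for granule cargo (-0.22), fell. With the GC and length offsets only FERMT3 was still called (0.31, edgeR adjusted p = 0.000984), where 4.75% of all genes were.

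Transcription factors of the red cell and megakaryocyte lineages were present. The exception was FLI1, an ETS factor of megakaryocytes, which had 0 counts in 3 libraries and 4 in the untreated scramble library. The list mixes factors of both lineages, KLF1 and MYB among them, so its counts do not stand for megakaryocyte factors alone. Of 12 listed factors 11 were tested, and for knockdown 1 rose, 0 fell and 10 were not called, 9.09% against 7.14% of all genes. The one that rose was GATA2 (log2 fold change 0.29, edgeR adjusted p = 0.0154), with a log2 ratio of 0.10 without and 0.48 under imatinib, and DESeq2 did not call it (adjusted p = 0.168). With the offsets MYB also fell (-0.18, edgeR adjusted p = 0.0189), where 12.2% of all genes were called. GATA1, which drives both lineages, had 0.15 (edgeR adjusted p = 0.285) and RUNX1 -0.18 (0.136). NFE2, a factor of platelet release that acts on TUBB1, had -0.09 (edgeR adjusted p = 0.589). GFI1B, a transcriptional repressor that works within both lineages, had 0.02 (edgeR adjusted p = 0.936). With imatinib 5 of the 11 rose and 0 fell, 45.5% against 20.9% of all genes. They were GATA1 (0.48, edgeR adjusted p = 2.6e-05), GFI1B (0.33, edgeR adjusted p = 0.00334), GATA2 (0.33), ZFPM1 (0.85) and KLF1 (0.45). With the offsets GFI1B was the 1 still called (0.40, 6.93e-07), against 4.75% of all genes.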

How the data were processed

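Ribosomal RNA was removed from 3 µg of total RNA for each of 4 libraries, prepared with a directional kit, per the labels' protocols. Per the submitters' processing notes, FastQC, HISAT2 and HTSeq 0.6.1 were used with build GRCh38. Which annotation release and strand setting were chosen is not given in the sources used here. Whole-number counts per gene were deposited by the authors. Their deposited FPKM values are taken as a score because 6 genes have negative ones; each value of the genes named here is positive or 0. Their deposited log2 columns were not used. Library totals lay between 30634832 and 34095585.

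The tested genes (13296) reached 1 CPM in 2 or more libraries and were fitted with edgeR 4.0.16 (R 4.3.3), TMM factors and an additive design, called at an adjusted p under 0.05; 1 residual and 33.8 prior degrees of freedom remained. The code was tested on simulated data. Pair ratios used a prior count of 2 and exact binomial 95% intervals; intervals and the limit for a count of 0 (3 counts) cover counting error only (PCR copies share a molecule). Identifiers were matched to GENCODE 29 (28329 of 28482), which gave positions, GC content and lengths. Alternatives were DESeq2 1.42.0, limma 3.58.1, other scalings and filters, GC and length offsets (mgcv 1.9.3) and each library left out. The 7 genes and the lists were chosen with earlier results of these data known. Named were the 7 genes, members of the platelet list called in either comparison, receptor partners and 5 lineage factors. Also named were other listed lineage factors that were called, and the 5 genes nearest in pattern to the most variable of the 7. Paralogs and pathway partners were added after the values were seen. T cell, B cell, monocyte, neutrophil and adherent cell markers were also summed.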

Additional observations from a re-analysis of the deposited data

Results flagged for a closer look

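ITGB3 was the one gene of the 5 tested whose pairs pointed in opposite directions. Its log2 ratio of knockdown over scramble was 1.20 under imatinib and -0.07 without, a difference of 1.26. Read the other way, the log2 ratio of imatinib over none was 0.70 in knockdown cells and -0.57 in scramble cells, the same difference of 1.26. The intervals of the -0.07 and -0.57 ratios include 0, the counts lie between 33 and 72, and the difference was not tested.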

How the results depend on the processing

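Under the scaling, filter and offset alternatives in edgeR, 3 of the tested genes were called for knockdown, and 0 for imatinib. Genes called for knockdown numbered 949, but 272 with DESeq2, 195 and 162 with limma (0.1 and 1 added), 1620 with GC and length offsets, and 0 without a term for imatinib (818 at an unadjusted p under 0.05), where 0 of the 5 were called. Leaving out a library in that form gave 34 to 759 genes and 0 to 2 of the 5. Genes called for imatinib numbered 2780, but 1003 with DESeq2, 1094 and 904 with limma, 629 with the offsets and 0 without a term for knockdown (2651 at an unadjusted p under 0.05), with 0 to 579 when a library was left out. The cause was not tested. No direction for knockdown reversed. For imatinib, none of whose changes was called, the fits with a library left out had no term for knockdown. The log2 values ran from -0.0735 to 1.06 for GP6, -0.661 to 0.153 for TUBB1 and -0.364 to 0.483 for RAB27B. For ITGB3 they ran from -0.553 to 0.685, and the fit with the offsets gave -0.0209. Leaving out a library mixes the hairpins unevenly between drug states, so a knockdown difference can enter these values. In both matched pairs GP6 was higher and TUBB1 lower with imatinib. With the trend removed RAB27B had log2 ratios of 0.37 for imatinib in knockdown cells and 1.07 for both over neither, GP6 0.35 for imatinib in knockdown cells, and ITGA2B 0.64 for imatinib in knockdown cells, -0.0532 for imatinib in scramble cells and -0.58 for both over neither. No analysis paired by replicate number was possible because each group has 1 library and the labels give no such numbers. The terms of the additive design do match libraries by drug state and by hairpin. Counts under 100 limit ITGA2B and ITGB3.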

Other observations

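PECAM1, an adhesion molecule shared by platelets and endothelial cells, was listed as a marker of adherent cells. It fell with knockdown (log2 fold change -0.63, SE 0.0998, edgeR adjusted p = 3.70e-05), with 29.5 CPM in the knockdown library and 46.8 CPM in the scramble library, and 27.3 CPM in the knockdown library with imatinib against 41.8 CPM in the scramble library with imatinib. The 4 markers of that list with a row summed to 30.9 and 28.3 CPM in the knockdown libraries, without and with imatinib, against 47.0 and 42.1 CPM in the scramble libraries, nearly all of it PECAM1. Of the others, KDR had 0 to 2 counts and COL1A2 0 to 2, while COL1A1 had 42 and 32 counts in the knockdown libraries against 5 and 7 in the scramble libraries. COL1A1 rose (log2 fold change 2.71, edgeR adjusted p = 0.00142). Thus of 2 tested markers 1 rose and 1 fell, where 7.14% of all genes were called. DESeq2 called PECAM1 (adjusted p = 0.00127) and not COL1A1 (0.138). The part of adherent cells in the results was not tested.

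Markers of other blood cells were mixed. The 4 T cell markers summed to between 14.1 and 20.8 CPM, of which CD3D gave nearly all, with CD3E at 0 counts in 3 libraries. The 4 monocyte markers summed to between 36.4 and 44.2 CPM, nearly all LYZ, the 3 neutrophil markers with a row to between 4.28 and 5.81 CPM, and the 3 B cell markers with a row to at most 0.131 CPM.

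ITGA2B had the widest range of the 5 tested genes over the 4 libraries. Among 9369 protein-coding genes with mean CPM of at least 5, those nearest to its centred log2 CPM by Euclidean distance were RPS6KL1 (0.146), MUC4 (0.172), UAP1L1 (0.229), ARAP3 (0.294) and CDC42EP1 (0.309). The pattern of ITGA2B rests on 28 to 94 counts a library.

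Of genes for signalling by glycoprotein VI, listed after the values were seen, 6 were tested and for knockdown 1 rose, BTK (log2 fold change 0.27, edgeR adjusted p = 0.022), 1 fell, LYN (-0.63, edgeR adjusted p = 5.52e-08), and 4 were not called, against 7.14% of all genes called. DESeq2 called LYN and not BTK (adjusted p = 0.222). With the offsets FYN rose as well (0.19, edgeR adjusted p = 0.0329), where 12.2% of all genes were called.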
